A study of Mus musculus with 30 samples.

Results

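The 36 genes described here encode the machinery that starts, spreads and converts the electrical signal of the heart: sodium channel subunits, pacemaker channels, calcium channel subunits, the release and storage proteins of the sarcoplasmic reticulum, calcium transporters, the proteins that hold the release site together, calmodulin kinases, the sodium pump and connexins. They were taken by name and function, by a rule that used no measured value. The list was however chosen with earlier results of these data known, so the shares called below describe a list that was not blind to them. They stand against 20764 genes in the heart table and 54532 genes in the HL-1 table. All 36 were listed in both tables. All 36 passed the filter on low counts in hearts, whereas only 17 did so in HL-1 cells.

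An action potential begins when sodium enters through voltage-gated channels, and the calcium that then enters through L-type channels opens ryanodine receptors on the sarcoplasmic reticulum, so that the stored calcium is released and the sarcomeres contract. SERCA pumps, held back by phospholamban, return the calcium to the store, and the sodium-calcium exchanger moves the rest out of the cell. HCN channels and T-type calcium channels contribute to the slow depolarization of pacemaker cells, and connexins pass the current from cell to cell.

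Gene counts came from heart tissue of 18 female mice labelled C57BL6, for which the methods give a background mixed from the J and N substrains, kept under a light and dark cycle with free access to chow and water, with 3 hearts in each of 6 groups. Young mice were 2 months of age and untreated, old mice were 12 months of age and had either plain drinking water (old H2O) or water with the NAD+ precursor nicotinamide riboside (NR) at 3 g/L from 2 months of age (old NR), and each group was sampled at ZT10, in the light phase, or at ZT22, in the dark phase. A second set held 12 libraries of HL-1, a mouse line that was grown from atrial tumours, with 3 in each of 4 groups: untreated (Ctrl), FK866, which inhibits the NAD+ synthesis enzyme NAMPT, FK866 with NR, and FK866 with NR and the sirtuin inhibitor Ex527. The heart labels carry an identifier for each animal. For cell experiments the methods speak of wells cultured separately, which the HL-1 labels do not tie to these libraries, so p-values for HL-1 measure the spread between libraries that may be wells of 1 culture.

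Some libraries stood apart, and this bears on several of the genes. Total counts ran from 3922137 to 7562215 in hearts and from 21337922 to 35000109 in HL-1. The summed normalized count of 8 atrial markers was 5139 in young ZT10 replicate 1 against 1434 and 1241 in the other two, and 3674 in old H2O ZT22 replicate 2 against 1015 and 1116, while all old H2O hearts at ZT10 lay between 2935 and 4071. Replicates 1 and 3 of old NR at ZT10 were closer to each other than any other pair (chi-square per degree of freedom 1.07, p = 3.55e-08, against 1.71 or more elsewhere). They were kept as 2 hearts because the labels carry an identifier for each animal. The test compares only with the sampling of reads, so it cannot tell 2 animals from 2 libraries of 1 heart. In HL-1, markers that define a cardiomyocyte were almost absent: Myh6 had 0 to 6 counts, Nppa 0 to 3, and Actc1 and Myl2 0 in all 12 libraries, which allows up to 3 counts each, whereas the fibroblast collagen Col1a1 had 11141 to 26657. Moreover, FK866 NR replicate 1 held 561 counts of the neuronal gene Snap25, against 0 in each of the other 11 libraries, and the differences of the 36 genes that were called with it are also given without it.

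Levels were compared between genes as counts scaled by gene length and library total, the scale of FPKM. The lengths are those listed with the HL-1 counts, such as 2934 bases for Slc8a1, 22493 for Camk2d and 35004 for Ank2. The order between genes depends on these lengths and is only approximate. The listed Slc8a1 gene ends at base 81649607 of chromosome 17, short of its RefSeq promoter at 81738388 to 81738637. Its length may therefore not match the gene on which heart reads were counted. Counts of Atp2a2 hardly varied before scaling (7719 to 8974), as described further on, so its scaled range depends on library totals. On this scale the transporters and the proteins of the store came first in hearts. The sodium-calcium exchanger Slc8a1 had a median of 256 (range 215 to 314 over 18 hearts), the SERCA pump Atp2a2 249 (186 to 338) and calsequestrin Casq2 195 (157 to 242). Junctophilin Jph2, which ties the surface membrane to the store, had 150 (116 to 170). Their ranges overlapped in part, so that the order among Slc8a1, Atp2a2 and Casq2 differed between hearts. The main calcium channel pore Cacna1c lay at 30.2 (28.6 to 37.5) and its relative Cacna1d at 0.554 (0.207 to 0.873). Among sodium channel subunits, Scn4b, a beta subunit, lay at 39.6 (12.2 to 52.4), the skeletal muscle pore Scn4a at 14.3 (7.14 to 17.2) and the sensory neuron pore Scn10a at 0.905 (0.458 to 1.9). Hcn2 lay at 18.8 (14.2 to 24.2) and Hcn4, the main pacemaker channel of the sinus node, at 6.02 (3.36 to 8.96). Scn2b (3 to 21 counts) and Fkbp1b (4 to 27 counts) were so shallow that only a large change could have been called.

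**Figure D1:**
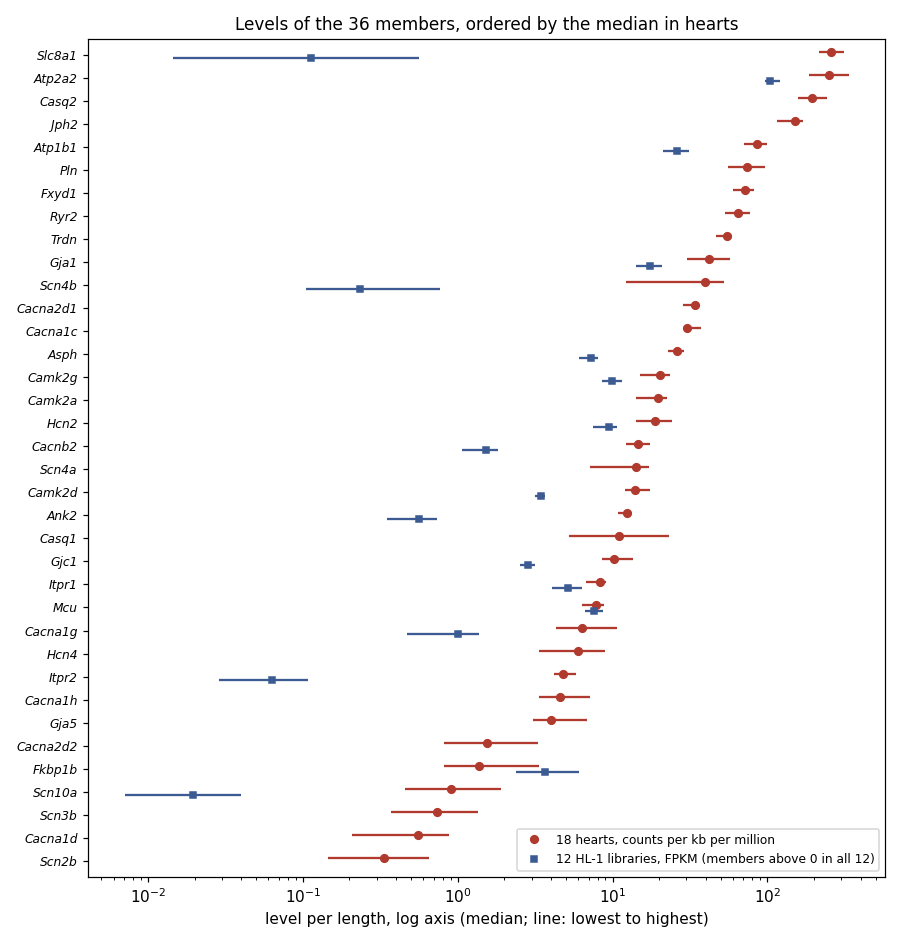
Level of each of the 36 genes per length on a log axis, as the median (point) and the lowest to highest value (line) over 18 hearts in counts per length and library total on the scale of FPKM (circles), and over 12 HL-1 libraries in FPKM for genes above 0 in every library (squares). The hearts span from 256 for Slc8a1 to 0.336 for Scn2b, and in HL-1 Slc8a1 and Scn4b lie far to the left of their heart values while Mcu lies near it.

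The first question was which of these genes differed between ZT10 and ZT22 in young hearts. At ZT10, 6 genes were higher: 3 of the 5 sodium channel subunits (Scn4a, Scn10a and Scn4b), the T-type calcium channel Cacna1h and 2 of the 3 calmodulin kinases (Camk2a and Camk2g). The other sodium channel subunits did not pass the test (Scn2b 0.82, Scn3b -0.47), and 1 gene fell, Mcu, the calcium uniporter of mitochondria. These 7 of 36 (19.4%) compare with 14.4% of all 15443 genes tested (adjusted p under 0.05 in edgeR's quasi-likelihood fit). The median log2 difference was 0.06 over the 36 genes and 0.01 over all genes. The hearts are bulk tissue, in which fewer cells of a type and less RNA per cell cannot be told apart.

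Scn4a was 578, 583 and 599 normalized counts at ZT10 and 444, 317 and 284 at ZT22. All young ZT10 hearts lay above all ZT22 hearts (log2 difference 0.77, SE 0.13, adjusted p = 0.0004). Camk2a, a calmodulin-dependent kinase best known from neurons, was 908, 826 and 947 at ZT10 and 769, 596 and 620 at ZT22, again without overlap (0.44, SE 0.08, adjusted p = 0.000695). Both calls were kept whichever heart was left out. Camk2g, another subunit of the kinase, was 756, 783 and 853 against 746, 546 and 622 (0.33, SE 0.08, adjusted p = 0.0083), and the call was lost without young ZT10 replicate 3 or ZT22 replicate 2 (adjusted p 0.0531 and 0.0724). The main cardiac subunit Camk2d showed a log2 difference of 0.03 and did not pass the test.

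Cacna1h was 388, 295 and 275 at ZT10 and 208, 185 and 207 at ZT22. The groups did not overlap (0.68, SE 0.17, adjusted p = 0.00694), but the highest value belonged to young ZT10 replicate 1, the heart with the high atrial markers, and without it the adjusted p was 0.0583. Scn4b was 819, 723 and 612 against 612, 342 and 444 (0.64, SE 0.16, adjusted p = 0.00857). One heart of each group met at 612, and the call was lost without young ZT10 replicate 1 or ZT22 replicate 2 (adjusted p 0.0531 to 0.072).

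Scn10a rested on few reads. Its normalized counts were 36.7, 53.9 and 85.4 at ZT10 and 41.8, 20.6 and 28.2 at ZT22 (0.97, SE 0.30, adjusted p = 0.0298), and the groups overlapped. The call was lost without young ZT10 replicate 2 or 3 or ZT22 replicate 2 or 3 (adjusted p 0.0553 to 0.219) and with only these groups in the fit (0.0652). Mcu was 269, 286 and 283 at ZT10 and 324, 308 and 344 at ZT22. This small decrease did not overlap (-0.22, SE 0.07, adjusted p = 0.0436), but with 1 heart left out it was called only without ZT22 replicate 2 and otherwise lay at adjusted p 0.0759 to 0.182. With all hearts it was also lost with DESeq2 (0.142), with no filter on low counts (0.063) and with only these groups in the fit (0.0939). With both hearts of high atrial markers left out (young ZT10 replicate 1 and old H2O ZT22 replicate 2), 5 of the 36 genes were called, and Mcu (adjusted p = 0.162), Cacna1h (0.0516) and Scn4b (0.0639) were lost.

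On mm10, as the HL-1 table places them, Scn4a lies on chromosome 11 (106318592 to 106353288, minus strand), Cacna1h on chromosome 17 (25374285 to 25433783, minus strand), Scn4b on chromosome 9 (45138395 to 45154152, plus strand), Hcn4 on chromosome 9 (58823412 to 58863175, plus strand) and Cacna1g on chromosome 11 (94408391 to 94474198, minus strand). The counts are sums over a whole gene, so no isoform was told apart.

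In old H2O hearts the same comparison called Hcn4, Cacnb2 and Scn4a. Hcn4 and Scn4a were lower at ZT10 than at ZT22, and the calcium channel beta subunit Cacnb2, which brings the pore to the membrane, was higher. These 3 of 36 (8.33%) compare with 4.2% of all genes, and the median log2 difference of the 36 was 0.00.

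Hcn4 was 145, 116 and 127 at ZT10 and 197, 219 and 179 at ZT22. All ZT10 hearts lay below all ZT22 hearts (-0.62, SE 0.12, adjusted p = 0.0048). Cacnb2 was 1251, 1257 and 1308 at ZT10 and 1067, 951 and 914 at ZT22, also without overlap (0.39, SE 0.07, adjusted p = 0.00193). Both held whichever heart was left out. Scn4a was 413, 491 and 394 at ZT10 and 504, 623 and 684 at ZT22 (-0.49, SE 0.13, adjusted p = 0.0295). Its direction was opposite to that in young hearts, but the call within old hearts was lost without ZT10 replicate 1 or 3 or ZT22 replicate 2 or 3 (adjusted p 0.0925 to 0.167) and without the hearts of high atrial markers (0.109).

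Some markers of the conduction system also differed between the times in old H2O hearts, though not all in the direction of Hcn4. Of 9 nodal and conduction markers, 8 were tested and 3 were called between the times in old H2O hearts: Tbx3 (-0.46) and Irx3 (-0.42), transcription factors of conduction tissue, were lower at ZT10, and Cacna2d3 (1.06) was higher. The summed marker count was 979 to 1098 at ZT10 and 1246 to 1297 at ZT22. In young hearts the sum was 1166 to 1200 and 1184 to 1263, and Tbx3 was also lower at ZT10 (-0.68) while Hcn4 showed a difference of 0.11 (adjusted p = 0.612). In old NR hearts, where Hcn4 was also lower at ZT10, the sum was 1150 to 1187 at ZT10 and 1022 to 1495 at ZT22. There Tbx3 was 259, 313 and 272 at ZT10 and 281, 225 and 247 at ZT22. Irx3 was 517, 461 and 501 against 412, 534 and 553, and Cacna2d3 12.1, 11.4 and 17.2 against 18.8, 20.2 and 19.8. The part of these markers in the Hcn4 results was not tested.

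Promoters from RefSeq on GRCm38.p6 were searched for 26 of the 36 genes. Of the 15 genes called in hearts or HL-1, 9 are among them. No promoter of the other genes is reported here, and whether RefSeq lists promoters for them is left aside. The 250 bases before each start were searched on both strands for the motifs through which clock factors bind: the E-box CACGTG, which is its own reverse complement, the D-box TTATGTAA or TTACGTAA, and the REV-ERB/ROR element AGGTCA. Of all 32851 promoters in the table, 6.02% held the E-box, 0.931% a D-box and 14% AGGTCA. In the 9 called genes reported here, 0 promoters held any of the motifs. In all 26 genes only 3, Hcn2, Jph2 and Ryr2, held the letters AGGTCA. The lack of a motif says only that these letters are not in these windows. The promoters of Hcn4, which was lower at ZT10 in both old groups, and of Casq1, which differed with age as described further on, are shown because both windows lie outside annotated exons; with no motif found, no base is in capitals. They lie at chr9:58822699-58822948 on the plus strand and chr1:172219896-172220145 on the minus strand of GRCm38, and each reads towards its start.
Hcn4: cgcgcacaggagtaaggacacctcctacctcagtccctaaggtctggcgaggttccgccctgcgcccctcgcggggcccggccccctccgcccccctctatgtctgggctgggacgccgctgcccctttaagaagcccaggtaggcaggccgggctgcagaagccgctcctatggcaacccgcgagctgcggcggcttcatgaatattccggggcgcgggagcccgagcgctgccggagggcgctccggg
Casq1: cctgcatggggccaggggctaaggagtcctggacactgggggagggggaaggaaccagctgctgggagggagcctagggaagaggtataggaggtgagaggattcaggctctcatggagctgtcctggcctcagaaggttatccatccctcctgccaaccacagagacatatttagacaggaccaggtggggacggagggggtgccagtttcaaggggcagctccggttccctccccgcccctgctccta

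In old NR hearts Hcn4 was again lower at ZT10, and so were Cacna1h and Itpr1, an inositol trisphosphate receptor of the endoplasmic reticulum. Cacnb2 was again higher. These 4 of 36 (11.1%) compare with 5.37% of all genes. Hcn4 was 124, 164 and 146 at ZT10 and 251, 310 and 250 at ZT22 (-0.90, SE 0.11, adjusted p = 2.78e-05). The ZT22 hearts lay above all ZT10 hearts, and the call was kept whichever heart was left out.

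Cacnb2 was 1230, 1170 and 1224 against 1016, 976 and 1017, without overlap (0.27, SE 0.07, adjusted p = 0.0216), and was lost without ZT10 replicate 1 or 3 or ZT22 replicate 2 or 3 (adjusted p 0.0576 to 0.1). Cacna1h was 207, 199 and 188 against 216, 394 and 305 (-0.66, SE 0.16, adjusted p = 0.0153). Its ZT22 hearts were spread widely, and the call was lost without ZT10 replicate 2 or 3 or ZT22 replicate 2 (adjusted p 0.0553 to 0.165). Itpr1 was 699, 723 and 712 against 737, 928 and 873 (-0.26, SE 0.07, adjusted p = 0.0347), a call that only the fit without ZT22 replicate 1 kept when a heart was removed (otherwise 0.0691 to 0.229), and that was also lost with no filter on low counts (0.0585) and with only these groups in the fit (0.101). Without replicate 1 of the close pair at ZT10 2 genes were called, and without replicate 3 only 1.

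**Figure D2:**
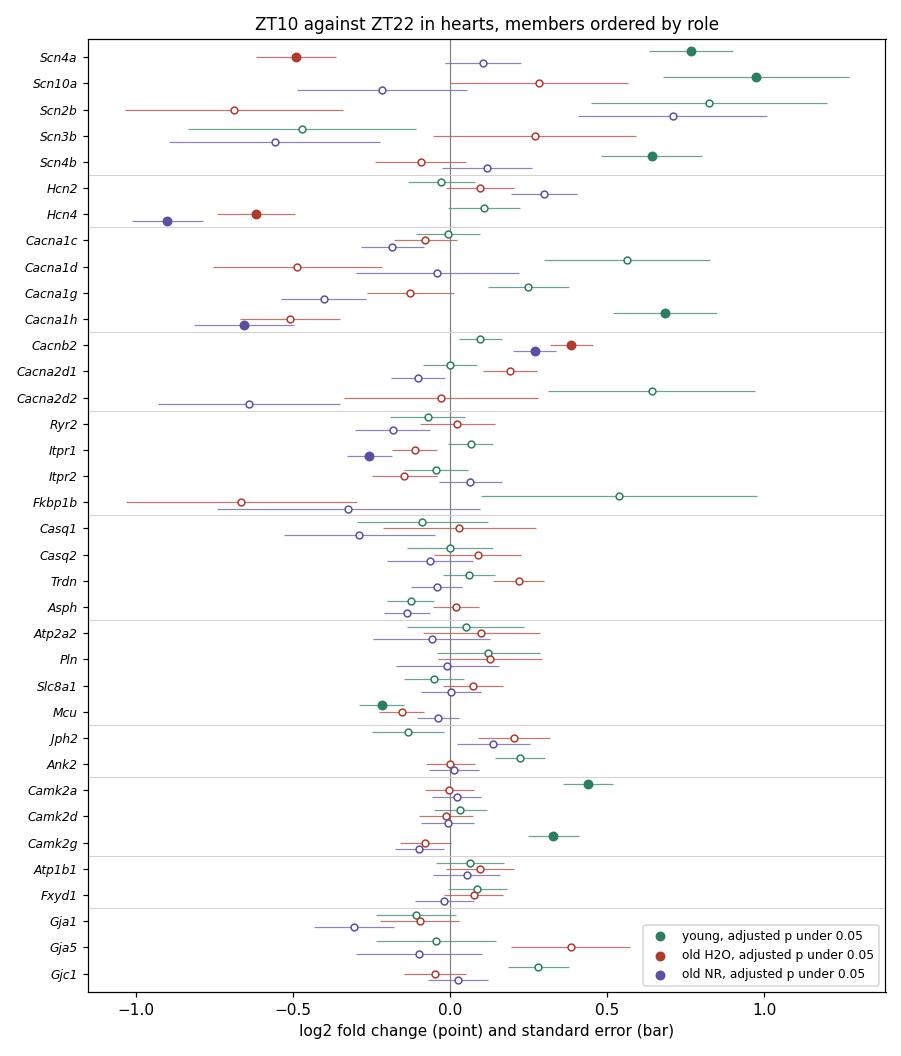
Log2 difference of ZT10 against ZT22 with its standard error for each of the 36 genes, ordered by role, in young (green), old H2O (red) and old NR hearts (purple). Filled points passed an adjusted p under 0.05: they lie to the right for 6 of 7 genes in young hearts, while Hcn4 lies at -0.62 and -0.90 in the old groups.

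Whether the time difference itself differed between young and old H2O hearts was tested with the interaction of age and time. It was negative for all 6 genes called: Scn4a, Cacna1h, Scn4b, Hcn4, Camk2a and Camk2g were relatively lower at ZT10 in old hearts than the young hearts would give. These 6 of 36 (16.7%) compare with 6.89% of all genes. The largest was Scn4a (-1.26, SE 0.18, adjusted p = 0.000304), a gene whose young means were 587 ± 11 (SD, n = 3) at ZT10 and 348 ± 84.2 at ZT22, against 433 ± 51.5 and 604 ± 91.6 in old H2O hearts.

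Cacna1h showed the same crossing, from 319 ± 60.2 and 199.8 ± 13.1 in young to 240.4 ± 23.5 and 345 ± 55.1 in old H2O hearts (-1.19, SE 0.23, adjusted p = 0.00306). Hcn4 was 235 ± 7.42 and 219 ± 22.2 in young against 129 ± 14.5 and 198 ± 20.4 in old hearts (-0.73, SE 0.17, adjusted p = 0.0112). These interactions were kept with any of the 12 hearts left out and in the other fits.

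The kinases and Scn4b were less firm. Camk2a was 894 ± 61.9 and 661 ± 94.2 in young and 847 ± 18.8 and 852 ± 57.3 in old H2O hearts (-0.44, SE 0.11, adjusted p = 0.0203), so that the old hearts were alike at both times. It was lost without young ZT10 replicate 3, young ZT22 replicate 2 or 3 or old ZT10 replicate 3 (adjusted p 0.0511 to 0.0642). Camk2g (-0.41, SE 0.12, adjusted p = 0.0338) was lost without young ZT10 or ZT22 replicate 2 or 3, any old H2O heart at ZT10 or old ZT22 replicate 2 (0.0544 to 0.0948), without the hearts of high atrial markers (0.068) and with only these groups in the fit (0.0542). Scn4b (-0.74, SE 0.22, adjusted p = 0.0427) was lost without young ZT10 replicate 1 or 2, young ZT22 replicate 2 or 3, any old heart at ZT10 or old ZT22 replicate 2 or 3 (0.0564 to 0.124), with DESeq2 (0.11) and without the hearts of high atrial markers (0.132).

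**Figure D3:**
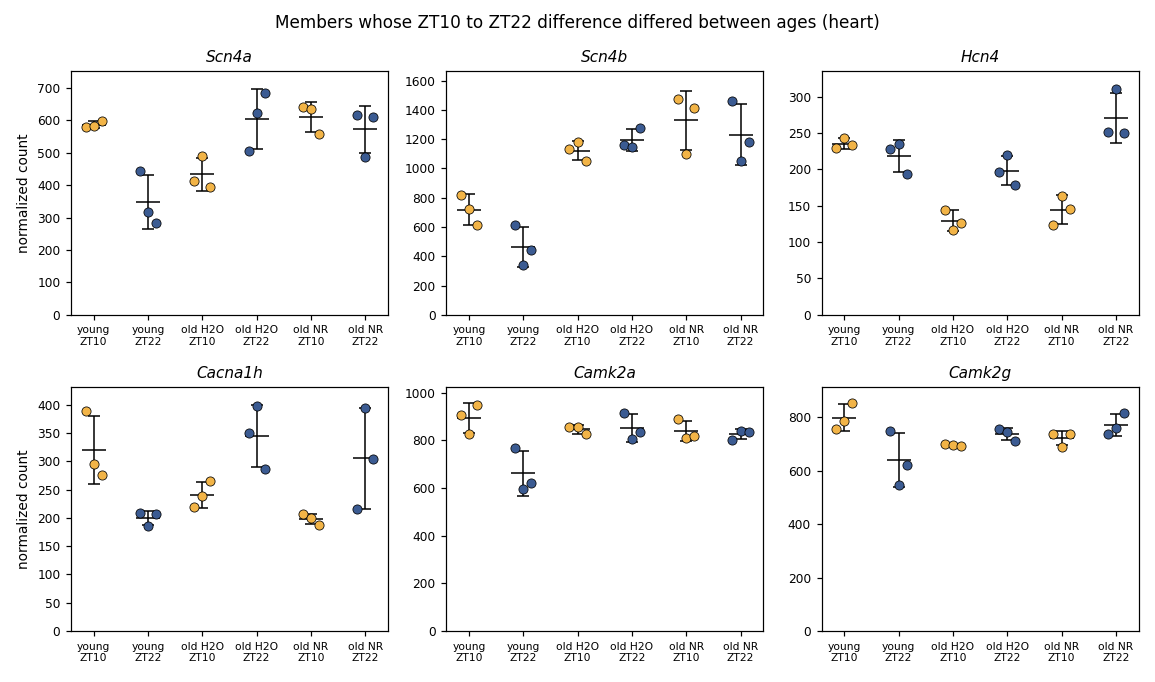
Normalized counts of the 6 genes with a called interaction of age and time in each heart (points; yellow ZT10, blue ZT22), with the mean and SD of 3 hearts. Scn4a and Cacna1h are higher at ZT10 in young and higher at ZT22 in old H2O hearts, whereas Hcn4 is low at ZT10 in both old groups only.

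Age was then compared at each time, with old H2O against young hearts. At ZT10, 2 genes were higher in old hearts, Scn4b and Slc8a1, and 4 were lower, Hcn4, the T-type channel Cacna1g, the skeletal muscle calsequestrin Casq1 and the connexin Gjc1. These 6 of 36 (16.7%) compare with 5.87% of all genes. The comparison shares the young ZT10 and old H2O ZT10 hearts with those above.

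Hcn4 was 145, 116 and 127 in old against 229, 244 and 234 in young hearts (-0.87, SE 0.12, adjusted p = 0.000178). Cacna1g was 328, 310 and 292 against 553, 488 and 609 (-0.82, SE 0.13, adjusted p = 0.000685). For both genes every old heart lay below every young heart, and both were kept whichever heart was left out. In the same hearts the summed nodal and conduction markers were 979 to 1098 in old against 1166 to 1200 in young, and of the 8 tested Cntn2, a cell adhesion gene of conduction tissue, was lower (65.2 to 87.2 against 169 to 217 normalized counts; -1.30, adjusted p = 0.0452) and Cacna2d3 was higher (1.85). Their part in the Hcn4, Cacna1g and Gjc1 results was not tested. The relatives of Cacna1g pointed the same way without passing the test, with -0.41 for Cacna1h (adjusted p = 0.146) and -0.69 for Cacna1d (adjusted p = 0.145).

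Scn4b was 1131, 1180 and 1050 in old against 819, 723 and 612 in young hearts (0.64, SE 0.15, adjusted p = 0.0134), lost without old ZT10 replicate 2 or young ZT10 replicate 3 (0.0557 to 0.0867). Casq1 was 123, 112 and 99.96 against 201, 232 and 192 (-0.90, SE 0.23, adjusted p = 0.0212), lost without old replicate 2 or 3 or young replicate 2 (0.0686 to 0.0911), with DESeq2 (0.0612) and without the hearts of high atrial markers (0.0545). Neither overlapped. Gjc1, which joins cells of the conduction system, was 263, 303 and 269 against 330, 378 and 384 (-0.38, SE 0.10, adjusted p = 0.022), lost without old replicate 1 or 3 or young replicate 2 or 3 (0.0868 to 0.101).

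Slc8a1 was 4777, 4590 and 4776 in old against 3872, 3557 and 3775 in young hearts. The groups did not overlap (0.34, SE 0.10, adjusted p = 0.0403), but the call was lost without any of the 6 hearts (0.0716 to 0.151). With both hearts of high atrial markers left out, 4 of the 36 genes were called at ZT10, and Slc8a1 (0.0944) and Casq1 were lost. All old H2O hearts at ZT10 stayed in that fit, with summed atrial markers of 2935 to 4071. The young ZT10 hearts left had 1434 and 1241, so the fit does not make the ages alike in these markers. With only the hearts of both groups in the fit, 12 genes were called, among them Scn4a (-0.43), Cacnb2 (0.22) and Cacna1h (-0.41). The share of all genes called in that fit is not given here, so the 12 cannot be set against it.

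At ZT22, 4 genes were higher in old H2O hearts, Scn4b, Scn4a, Cacna1h and Camk2a, and 2 were lower, Casq1 and Cacna1g. These 6 of 36 (16.7%) compare with 14.1% of all genes, so the share called was near that of all genes. Scn4b showed the largest change, from 612, 342 and 444 in young to 1160, 1146 and 1277 in old hearts (1.38, SE 0.16, adjusted p = 6.51e-06). All old hearts lay above all young hearts, as at ZT10.

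Scn4a was 504, 623 and 684 in old against 444, 317 and 284 in young hearts (0.83, SE 0.13, adjusted p = 0.000252). Cacna1h was 351, 397 and 287 against 208, 185 and 207 (0.78, SE 0.16, adjusted p = 0.00264), and Camk2a 916, 806 and 833 against 769, 596 and 620 (0.37, SE 0.08, adjusted p = 0.00414). None of these groups overlapped, and each call held whichever heart was left out.

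Casq1 was 67.7, 122 and 125 in old against 215, 256 and 193 in young hearts, again without overlap (-1.02, SE 0.22, adjusted p = 0.00389). The cardiac calsequestrin Casq2 differed by -0.01 and did not pass the test. Of 10 skeletal muscle markers 5 were tested and 1 was called at ZT22, Tnni2 (-1.41). The summed count of the markers listed was 914 to 1142 in old against 1229 to 1587 in young hearts at ZT22. At ZT10 it was 728 to 1449 against 712 to 1310, 0 markers were called and Casq1 was also lower. Nearly all of this sum was Acta1, with 507 to 1535 counts per heart, while no other listed marker passed 32. The sum thus mostly follows Acta1. The part of these markers in the Casq1 result was not tested. Cacna1g was 265, 351 and 379 against 470.2, 520 and 393 (-0.45, SE 0.13, adjusted p = 0.0278), lost without old ZT22 replicate 1 or 2 or young ZT22 replicate 1 or 2 (0.0576 to 0.148), without the hearts of high atrial markers (0.0665) and with only these groups in the fit (0.0571).

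**Figure D4:**
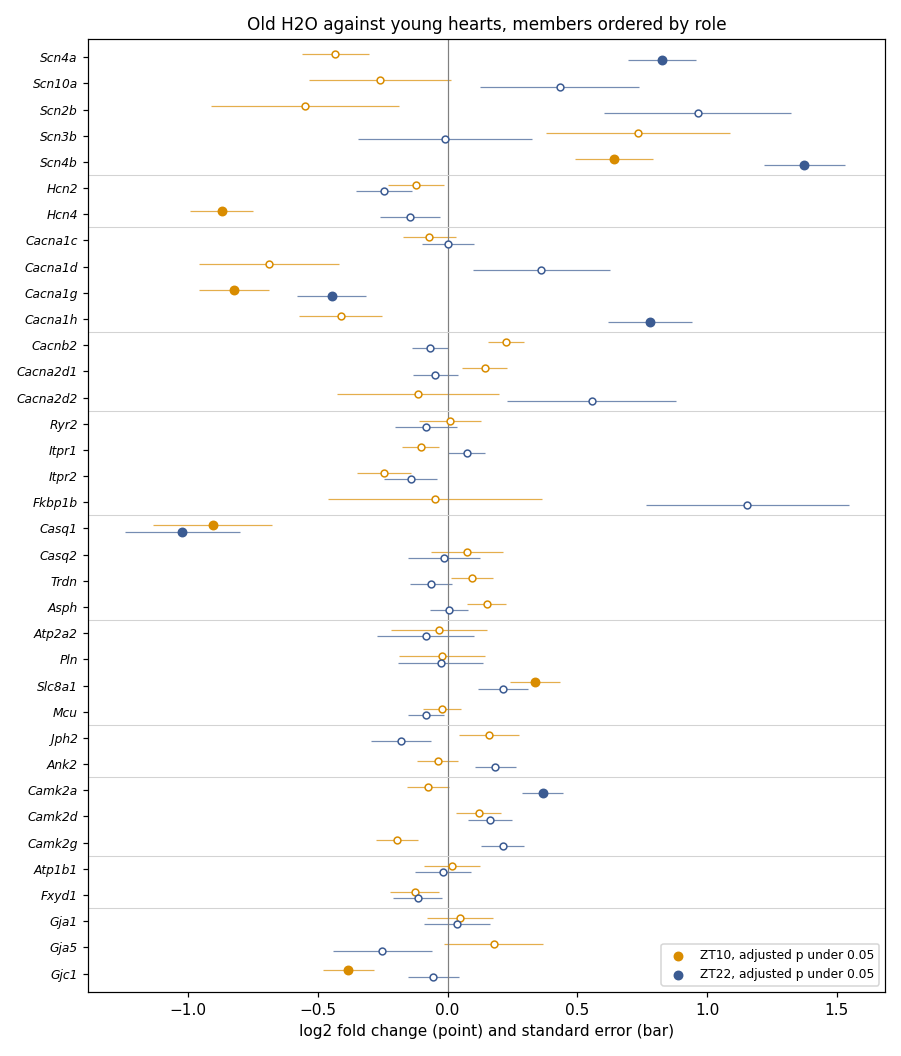
Log2 difference of old H2O against young hearts with its standard error for each of the 36 genes, ordered by role, at ZT10 (orange) and ZT22 (blue); filled points passed an adjusted p under 0.05. Scn4b lies to the right and Casq1 and Cacna1g to the left at both times, while Hcn4 is called only at ZT10 (-0.87) and Scn4a only at ZT22 (0.83).

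The genes that carry most of the calcium cycle were not called in any heart comparison. Atp2a2, its inhibitor Pln, Ryr2, Casq2, the junctional protein Trdn, Jph2, Camk2d, the pore Cacna1c, the sodium pump subunit Atp1b1, its regulator Fxyd1 and the ventricular connexin Gja1 were among the 22 genes with no call. In old H2O hearts at ZT22 Atp2a2 was 11612, 7844 and 6408 and Pln 1501, 1046 and 870, and the summed count of 8 ventricular cardiomyocyte markers was 41050, 28156 and 24046 in the same hearts. Atp2a2 and Pln were highest and lowest in the same hearts as these markers, whose part in their values was not tested. Before scaling, counts hardly varied over 18 hearts, at 7719 to 8974 for Atp2a2, 998 to 1219 for Pln and 9056 to 10336 for the marker Myh6. Total counts of the old H2O ZT22 hearts were 3922137, 6122256 and 7562215, so the scaled values of both genes fell as the total rose. The methods name removal of duplicate reads, whose part was not tested. The lack of a call for Atp2a2 and Pln does not show that they were unchanged.

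Whether NR altered these genes in old hearts was asked by old NR against old H2O at each time, over both times and as an interaction with time; these share the old H2O and old NR hearts with the comparisons above. No gene of the 36 was called at ZT10, at ZT22, over both times or in the interaction, by edgeR without a replicate block or by DESeq2, against 0.285%, 0.35%, 0.337% and 0.343% of all genes. At an unadjusted p under 0.05 there were 6, 2, 7 and 4 genes of the 36. Of all 15443 genes tested, 1565, 1737, 1672 and 1584 had such a p. The smallest adjusted p was that of Hcn4 at ZT22, with 251, 310 and 250 in old NR against 197, 219 and 179 in old H2O hearts (0.46, SE 0.11, adjusted p = 0.0688). The groups did not overlap, and the difference was not called. A replicate block in edgeR, on numbers not shown to pair the hearts, gave an adjusted p of 0.0321 for Hcn4.

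Scn4a at ZT10 was 641, 635 and 557 in old NR against 413, 491 and 394 in old H2O hearts (0.49, SE 0.13, adjusted p = 0.119), and its NR by time interaction was 0.60 (SE 0.18, adjusted p = 0.205). Its old NR values at ZT10 lay above all old H2O values, near the young 578 to 599. The atrial connexin Gja5 at ZT10 was 119, 102 and 99.3 against 148, 157 and 221 (-0.71, SE 0.19, adjusted p = 0.144). The same hearts differed in atrial markers, with a summed count of 997 to 1142 in old NR and 2935 to 4071 in old H2O hearts and 5 of 8 atrial markers lower in old NR. The part of the atrial markers in the Gja5 difference was not tested. With only these groups fitted Scn4a (0.50) and Gja5 (-0.71) passed the threshold. The share of all genes that passed it in that fit is not given here.

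Other genes of the same pathways, 59 in a list with 52 tested in hearts, were called in 7 cases between the times in young hearts, all higher at ZT10. This is 13.5%, against 14.4% of all genes. Among them were the junctophilin Jph1 (0.41, adjusted p = 0.000655), the calcium channel beta subunit Cacnb4 (1.54, adjusted p = 0.000175) and the calcium-activated cation channel Trpm4 (0.27, adjusted p = 0.0121), as well as Itpr3, Gja4 and Trpm7. In old H2O hearts 1 rose (Cacna2d3) and 2 fell (the calcium pump Atp2b4 and Trpm4), and in old NR hearts Gja4 rose (0.55), which makes 5.77% and 1.92% against 4.2% and 5.37% of all genes. The interaction of age and time was called for 7 (13.5%, against 6.89%): it was positive for Cacna2d3 (1.62) and negative for Jph1 (-0.60), Trpm4 (-0.58), Cacnb4 (-1.35), Itpr3 (-0.51), Atp2a3 (-0.49) and Atp2b4 (-0.41).

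With age, 4 of these pathway genes rose and 5 fell at ZT10, and 8 rose and 1 fell at ZT22. At each time this is 17.3%, against 5.87% of all genes at ZT10 and 14.1% at ZT22. Cacna1s, the skeletal muscle calcium channel pore, and Camk2b were higher in old hearts at both times (0.87 and 0.55 for Cacna1s, 0.58 and 0.66 for Camk2b at ZT10 and ZT22), and Atp1b2 was lower at both (-0.48 and -0.28). Cacna2d3 also rose and Atp2b4, Cav3, Jph1 and Trpm4 fell at ZT10, while Jph1, Trpm4, Cacnb4, Atp2a3, Ryr3 and Mcub rose at ZT22. With NR, sarcolipin Sln, itself one of the atrial markers, was lower at ZT10 (-2.69, adjusted p = 0.0286), and Atp2b4 was lower at ZT22 (-0.35, adjusted p = 0.0151).

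In HL-1 cells, 19 of the 36 genes were too low to test. Pln had 0 counts in all 12 libraries, and the 19 genes had at most 9 counts in any library other than FK866 NR replicate 1. In that library 9 of the 19 had 10 or more: Camk2a 567, Scn2b 84, Ryr2 77, Cacna2d1 70, Scn3b 46, Cacna1c 31, Cacna1d 28, Cacna2d2 22 and Cacna1h 14. These rose together with the neuronal gene given above, and their part in that library was not tested. Of the genes with a solid level, Atp2a2 lay at a median of 104 FPKM (96.8 to 120), Atp1b1 at 26.1 (21.1 to 31.4), Gja1 at 17.4 (14.2 to 20.8) and Hcn2 at 9.5 (7.44 to 10.7).

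With FK866, Cacna1g fell and Ank2, the ankyrin that anchors ion transporters to the membrane skeleton, rose. The comparisons with FK866 alone as the reference share its libraries. These 2 of 17 genes tested compare with 4.59% of all 14760 genes (adjusted p under 0.01 and a change over 1.5-fold). Cacna1g was 162, 137 and 127 with FK866 against 369, 344 and 243 in Ctrl (-1.17, SE 0.18, adjusted p = 0.000218). The groups did not overlap, and no left-out library removed the call. Ank2 was 543, 539 and 643 against 386, 360 and 323 (0.69, SE 0.16, adjusted p = 0.00493), and it missed the threshold of 0.01 without Ctrl replicate 2 or 3 or FK866 replicate 1 or 3 (0.0123 to 0.0206).

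With the fold limit dropped and an adjusted p under 0.05, 5 of 17 genes differed (24.8% of all genes did). Gja1, which forms the ventricular gap junction, was 3852, 3865 and 4355 with FK866 against 5640, 5297 and 5405 in Ctrl (-0.44, SE 0.06, adjusted p = 8.87e-05). Atp1b1 (-0.25) and Camk2g (-0.20) were lower too. For Gja1 every FK866 library lay below every Ctrl library.

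NR on top of FK866 raised Cacna1g again, the only one of 17 genes called against 4.81% of all genes. It was 344, 316 and 315 with FK866 and NR against 162, 137 and 127 with FK866 (1.20, SE 0.18, adjusted p = 0.000184), and 1.16 (adjusted p = 0.0011) without FK866 NR replicate 1. Against Ctrl the difference was 0.03 (SE 0.16, adjusted p = 0.923), and -0.02 (adjusted p = 0.966) without the replicate. The Cacna1g values with NR thus lay within the range of Ctrl. No gene of 17 was called there by edgeR or DESeq2, against 0.901% of all genes. At an unadjusted p under 0.05 there were 7 of 17, and 5797 of all 14760 genes.

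With the fold limit dropped, 6 of 17 differed between FK866 with NR and FK866 (28.9% of all genes did) and 5 between FK866 with NR and Ctrl (23.9%); without FK866 NR replicate 1 these were 5 and 0. Cacnb2 was 559, 638 and 578 with NR against 451, 374 and 444 with FK866 (0.48, SE 0.08, adjusted p = 0.000615), and 0.52 (adjusted p = 0.00151) without that replicate. Gja1 was 4709, 4737 and 4738 against 3852, 3865 and 4355 (0.23, SE 0.06, adjusted p = 0.0089; 0.0278 without the replicate), which placed it between FK866 and Ctrl. Hcn2 was 661, 633 and 657 against 797, 903 and 833 (-0.38, SE 0.08, adjusted p = 0.00256; 0.00944 without the replicate), below both FK866 and Ctrl.

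Ank2 and Slc8a1 depended on FK866 NR replicate 1. Ank2 was 686 in that replicate and 393 and 433 in the other two; against FK866 its difference was -0.20 (adjusted p = 0.367) with it and -0.47 (adjusted p = 0.00614) without it. Slc8a1 was 43.6, 12.5 and 15.7 with NR against 4.65, 1.12 and 6.17 with FK866, a difference of 2.51 (adjusted p = 0.0132) that was 1.79 (adjusted p = 0.0804) without the replicate. Atp1b1 (0.21, adjusted p = 0.038) likewise lay at 0.15 (adjusted p = 0.171) without it.

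With Ex527 added to FK866 and NR, no gene of 17 was called against FK866 (1.27% of all genes) or against FK866 with NR (0.596%). At an unadjusted p under 0.05 there were 5 of 17 in each, and 3999 and 3430 of all 14760 genes. DESeq2 called 1 gene in the first comparison, Cacna1g, and 0 in the second. Cacna1g was 222, 299 and 193 with Ex527, above every FK866 library (0.76, SE 0.18, adjusted p = 0.0123) and below every library with FK866 and NR (-0.44, SE 0.16, adjusted p = 0.119; -0.40 and 0.293 without FK866 NR replicate 1). With the fold limit dropped, 4 of 17 differed from FK866 (12.2% of all genes did): Cacna1g, Cacnb2 (0.43), Gja1 (0.24) and Camk2g (0.27). Against FK866 with NR 2 of 17 did (7.17% of all genes), Atp1b1 (-0.37, adjusted p = 0.00639) and Hcn2 (0.31, adjusted p = 0.0259), and without FK866 NR replicate 1 only Atp1b1 (-0.31, adjusted p = 0.0413).

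**Figure D5:**
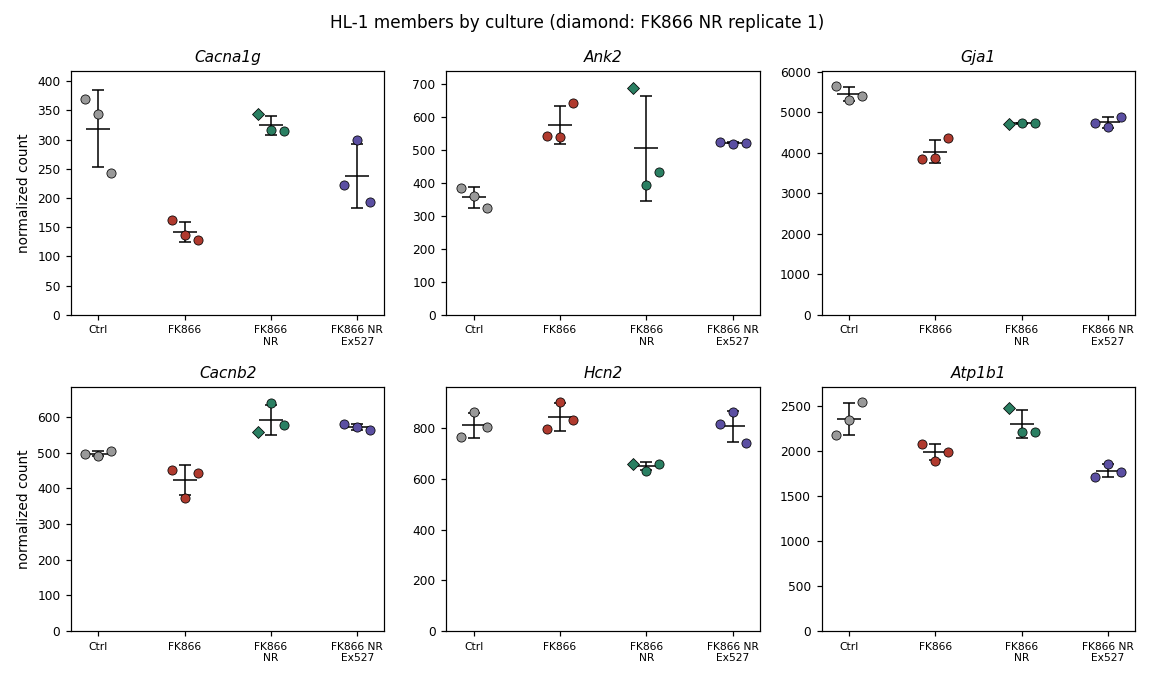
Normalized counts of 6 genes in each HL-1 library (points), with the mean and SD of 3 libraries per treatment; the diamond marks FK866 NR replicate 1. Cacna1g falls from 319 ± 66.4 in Ctrl to 142 ± 17.7 with FK866 and is 325 ± 16.3 with NR added, and the diamond stands apart for Ank2.

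Of the 38 other pathway genes tested in HL-1, 1 was called in the comparisons of these treatments: Cacnb4, which was 31.4, 32.5 and 55.5 with FK866 and 207, 82.1 and 112 with FK866 and NR (1.73, adjusted p = 0.000723). Its highest value was that of FK866 NR replicate 1, and it was not tested without that library. The sources used here do not say whether the HL-1 libraries kept strand, and Ank2, Cacnb2, Atp1b1, Slc8a1 and Itpr1 overlap annotated genes on the opposite strand, whose reads could then not be told apart.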

How the data were processed

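Heart libraries were stranded, and the submitters' processing notes name featureCounts 2.0.4, STAR 2.7.10a, Trimmomatic 0.39, DESeq2 1.36.0 and Picard 3.0.0, with build mm10. The authors deposited 2 heart tables whose names are exchanged. The table named as normalized holds the counts per gene, and the other is a score, counts that the authors divided by DESeq2 size factors (0.68 to 1.44) and rounded; only its gene symbols were used. For HL-1 the authors deposited counts (the notes name HISAT2, HISAT and TopHat2, without versions, and mm10) and FPKM values, which equalled counts per length and total within a factor of 0.968 to 1.01. FPKM and heart counts per length and library total, with gene lengths from the HL-1 table, served only to compare levels.

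Counts were fitted with edgeR 4.0.16 (R 4.3.3; TMM, quasi-likelihood test, 1 mean per group, all 18 hearts or all 12 HL-1 libraries), and p-values were adjusted by Benjamini-Hochberg over all genes tested: 15443 with an average count over 5 in hearts and 14760 by filterByExpr in HL-1. A normalized count is a count scaled to the mean TMM-adjusted library size. The scripts were tested on simulated data. The 36 genes, the 59 other pathway genes and the marker lists were chosen with earlier results of these data known. Every called gene of the 36 was named, with its values; some results on other genes are not reported here; promoters came from RefSeq. No pair of groups compared directly had correlations over 0.1 for all 3 same-numbered libraries, so the numbers were not treated as pairs. Weak pairing was not excluded. Old H2O at ZT10 and ZT22 had 0.21, 0.18 and 0.04, with 3 of 3 hearts matched best by their own number. Old H2O at ZT10 and old NR at ZT22 had 0.21, 0.11 and 0.11. An exact permutation test of 3 against 3 cannot go below p = 0.1, so none was used. Alternatives were DESeq2 1.42.0, its size factors, no filter, only the groups compared, a replicate block and each library left out; leaving out both hearts with high atrial markers was added after the data were seen.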

Additional observations from a re-analysis of the deposited data

Results flagged for a closer look

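The difference between ZT10 and ZT22 itself differed between old H2O and young hearts, by the test of the interaction of age and time, for 6 of the 36 genes. On the log2 scale it was -1.26 for Scn4a, -1.19 for Cacna1h, -0.74 for Scn4b, -0.73 for Hcn4, -0.44 for Camk2a and -0.41 for Camk2g, with the values of every heart and the hearts on which each call rested given in the report.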

How the results depend on the processing

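Of 35 called log2 differences, 17 kept their call under every alternative run and 18 lost it under at least 1, each of these with 1 library left out; the direction reversed in 0 of them. With each library left out in turn, the number of the 36 genes called ran from 4 to 7 between the times in young, 2 to 4 in old H2O and 1 to 5 in old NR hearts, from 3 to 5 with age at ZT10, 5 to 7 at ZT22 and 3 to 7 for the interaction, and was 0 in the NR comparisons. In HL-1 it ran from 1 to 2 for FK866 against Ctrl and from 0 to 1 for Ex527 against FK866. With only the groups compared in the fit, 12 genes were called with age at ZT10 and 2 with NR at ZT10. The shares of all genes called in these fits are not given here, and the cause was not tested. With a replicate block, for numbers not shown to pair the samples, Hcn4 was the 1 gene called with NR at ZT22 (0.46, adjusted p = 0.0321, edgeR). With that block 2 genes were called for FK866 with NR against FK866 (Slc8a1 added) and 1, Cacna1g, for Ex527 against FK866. With no fold limit and an adjusted p under 0.05, the HL-1 comparisons called 5, 6, 5, 4 and 2 genes in the order of the report. DESeq2 called 2 for FK866 with NR against FK866 and 1 for Ex527 against FK866. With no filter on low counts, 7 were called for FK866 with NR against FK866, 4 against Ctrl, 1 for Ex527 against FK866 and 5 for Ex527 against FK866 with NR; apart from Slc8a1 in the first and Cacna1g in the third, the added genes were among Camk2a, Ryr2, Scn2b, Cacna2d1 and Scn3b, which had counts mainly in FK866 NR replicate 1. Both hearts with high atrial markers, chosen after seeing the data, were also left out. This gave 5 and 3 calls for the times in young and old H2O hearts. It gave 4 and 6 calls with age at ZT10 and ZT22, and 5 for the interaction. The old H2O hearts at ZT10 stayed in these fits, with summed atrial markers of 2935 to 4071, so the groups were not made alike in them. With 3 samples a group and shallow counts for Scn2b, Fkbp1b and Scn3b, small changes were not detectable.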
